A study of Mus musculus with 3 samples.

Results

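The genes Cx3cr1, Ccr1, Ccr2, Ccr7, Cxcr2, Cxcr3, Cxcr4 and Cxcr6 encode the main chemokine receptors carried by microglia and by the leukocytes that enter the brain from blood. They were taken as a fixed list of 8 genes among the 19039 genes listed in at least 1 of 3 single-cell RNA matrices, and all 8 were present in all 3. The matrices held cells of mouse brain with metastases, of naive brain and of blood from mice with metastases. Together the 8 genes were widespread: at least 1 of them had a molecule in 60.7% of the cells of the brain with metastases, in 87.9% of those of the naive brain and in 87.5% of those of the blood.

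Chemokine receptors are membrane proteins that couple to G proteins and steer a cell along a gradient of chemokine. Each leukocyte type carries its own set. Cx3cr1 binds fractalkine (Cx3cl1) and marks microglia and patrolling, nonclassical monocytes. Ccr2 binds Ccl2 and related ligands and brings classical monocytes out of the bone marrow. Ccr1 binds Ccl3, Ccl5 and others and is carried by monocytes and neutrophils. Cxcr2 binds Cxcl1 and Cxcl2 and releases and recruits neutrophils, whereas Cxcr4 binds Cxcl12 and holds them and many other leukocytes in the marrow. Cxcr3 binds Cxcl9 and Cxcl10 and Cxcr6 binds Cxcl16, and both mark effector and tissue T cells. Ccr7 binds Ccl19 and Ccl21 and leads naive T cells, B cells and migrating dendritic cells to lymph nodes.

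Per the RefSeq table of GRCm38.p6, the same assembly version as the mm10 build of the submitters' processing notes, 4 of the 8 genes lie on chromosome 9. These are Cx3cr1 (chr9:120048683-120068296), Cxcr6 (chr9:123806477-123811754), Ccr1 (chr9:123962126-123968692) and Ccr2 (chr9:124101918-124109140). Cxcr2 (chr1:74153994-74161246) and Cxcr4 (chr1:128588199-128592299) lie on chromosome 1, Ccr7 (chr11:99144199-99155077) on chromosome 11 and Cxcr3 (chrX:101731535-101734147) on the X chromosome.

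The study asked how microglia shape the immune cells around brain metastases. All mice were females of 2 to 3 months on the C57Bl/6 background and carried Cx3cr1CreERT, a tamoxifen-inducible Cre placed at Cx3cr1 itself. The depleted arm had the ROSA-iDTR allele in addition, which makes recombined cells sensitive to diphtheria toxin. Both arms received tamoxifen, waited 1 month and then received the toxin, and the submitters state that some microglia remained in depleted samples. Metastases were seeded about 2 weeks earlier with E0771 mammary tumour cells given through the carotid artery. Each sample was 1 brain hemisphere, enriched for immune cells on Percoll, or peripheral blood, so shares of recovered cells are not tissue densities. The 8 samples were stained with 35 tagged antibodies and 1 hashtag antibody each, pooled, and run on the 10x 3' v3 assay.

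The brain with metastases gave 5933 cells, treated as 1 pooled sample, because its cells were not assigned to arms. In the naive brain 1868 cells carried the depleted label and 785 the control label. In the blood these numbers were 1553 and 1371. Median raw unique molecular identifier (UMI) counts per cell were 10119.5 and 8621 for the naive brain and 5885 and 4571 for blood, depleted label before control label. The arm of a cell rests on its hashtag, a barcode of 15 bases that differs from every other hashtag of the set by at least 11 bases. The 4 hashtags that define the arms below are shown because Cx3cr1 differed strongly between the labels attached to them.
M-HTO-4, naive brain labelled depleted: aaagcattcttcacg
M-HTO-1, naive brain labelled control: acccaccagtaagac
M-HTO-8, blood labelled depleted: tatagaacgccaggc
M-HTO-7, blood labelled control: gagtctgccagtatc

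Some samples stood apart, and the matrices shared cell barcodes. The same cell barcode appeared in the brain with metastases and the naive brain 518 times, in the brain with metastases and the blood 578 times, and in the naive brain and the blood 339 times. They accounted for 17.1% of cells from the brain with metastases, 29.1% from the naive brain and 28.5% from the blood. The naive brain, which had no metastases, held a tumour-like cluster of 111 cells, 72.1% of them with a shared barcode. The blood held a microglia-like cluster of 468 cells, 82.7% of them shared, and a tumour-like cluster of 180 cells, 83.9% of them shared. In the naive brain the median hashtag count was 837.5 under the depleted label and 215 under the control label. Values without these barcodes are given beside the differences below that they moved past or back below 2 fold.

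Levels are given as CP10k, the UMIs of a gene per 10000 UMIs of all cells in a cluster, with exact Poisson 95% intervals in brackets, counted on the depth-corrected UMIs that the authors deposited. Each label of the naive brain and of the blood was a single hashed sample, and cells of the brain with metastases were not assigned to samples here, so no comparison had replicates and nothing was tested. Intervals cover counting error only and are nominal, since corrected UMIs are not the captured molecules. A difference between samples is described by its log2 ratio after 0.1 CP10k was added to each side. A gene counted as measured where it reached 0.5 CP10k on at least 1 side, and a difference past 2 fold had a log2 ratio beyond 1. The authors' clusters of the naive brain and the blood, and 29 clusters made here for the brain with metastases without any chemokine receptor gene, were named after marker genes, and each name means that the cluster is like that cell type.

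Over all clusters of at least 30 cells, the receptors were highest in several cell types, and some of them shared a leading type. Cx3cr1 was highest in a microglia-like cluster of all 3 matrices. Ccr2 was highest in a monocyte-like cluster, Ccr1 and Cxcr2 in a neutrophil-like cluster, and Cxcr3 and Cxcr6 in a T cell-like cluster of all 3. Cxcr4 was highest in nonclassical monocyte-like cells of both brain matrices and in neutrophil-like cells of the blood. Ccr7 was highest in dendritic-like cells of the brain with metastases, in monocyte-like cells of the naive brain through a handful of cells, and in B cell-like cells of the blood. Without shared barcodes the leading cluster stayed the same in 23 of the 24 pairs of gene and matrix, the exception being Ccr7 in the blood. Tumour-like cells carried next to none of the 8 genes: the levels ran from 0 to 0.10 CP10k in 1164 cells of the brain with metastases, from 0 to 0.26 in the naive brain and from 0 to 0.05 in the blood, with Cx3cr1 the highest each time.

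**Figure D1:**
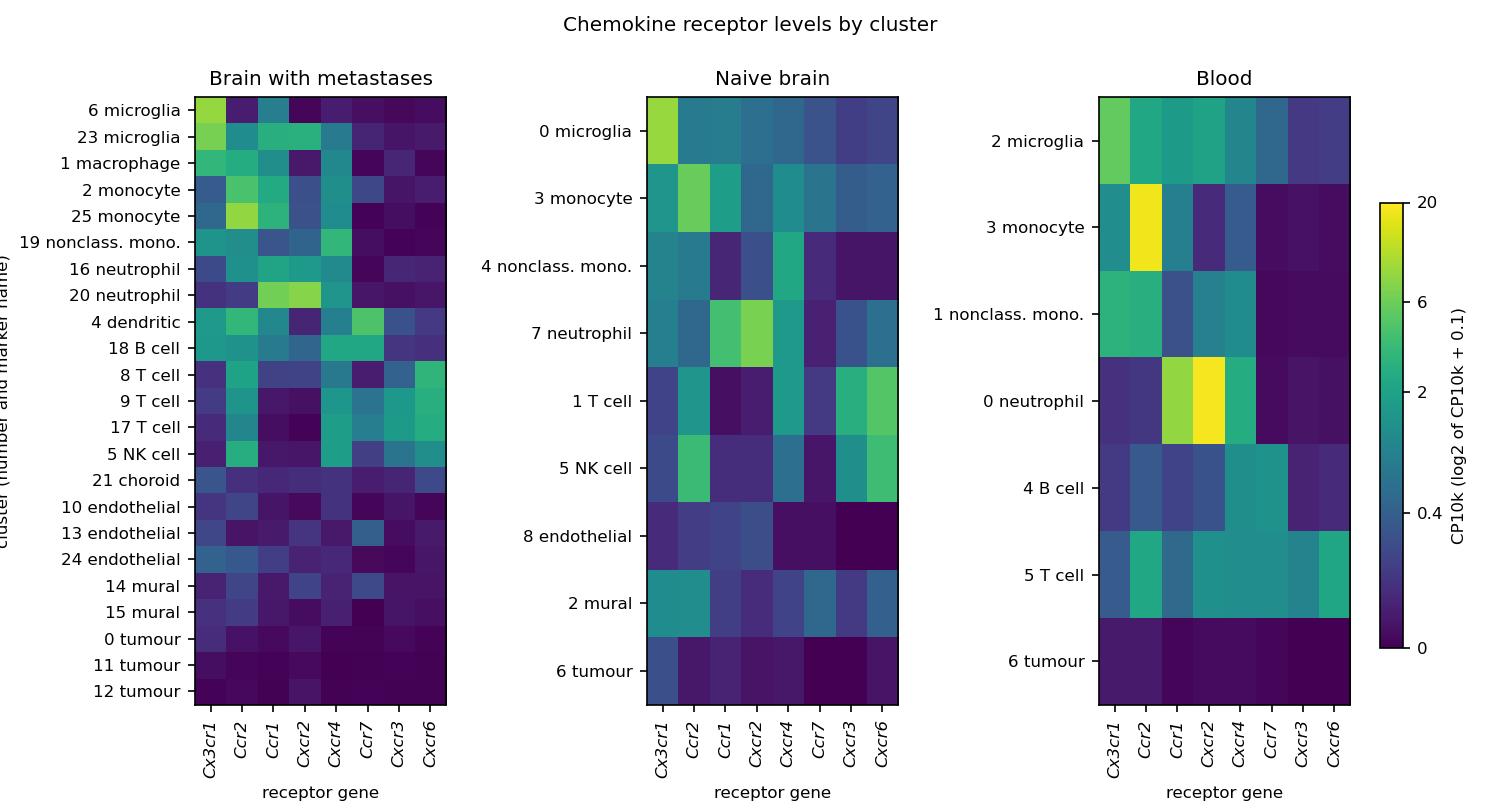
Level of each receptor gene (columns) in each named cluster of at least 30 cells (rows) in the brain with metastases, the naive brain and the blood; colour is the log2 of CP10k + 0.1, with the scale bar labelled in CP10k. Cx3cr1 is brightest in microglia-like rows, Ccr2 in monocyte-like rows, Cxcr2 in neutrophil-like rows, Cxcr3 and Cxcr6 in T cell-like and NK cell-like rows, and the tumour-like rows are dark for all 8 genes.

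Cx3cr1 was highest in microglia-like cells of the brain with metastases. Its main microglia-like cluster, of 414 cells, reached 8.62 CP10k [8.38, 8.87], with a molecule in 92.5% of cells, 5 or more UMIs in 79.2% and up to 52 in a single cell. A second microglia-like cluster of 137 cells, 66.4% of them with shared barcodes and also positive for neutrophil markers, reached 6.72 [6.36, 7.09]. Macrophage-like cells followed at 3.26 [3.05, 3.48], an unnamed cluster of 181 cells at 2.71 [2.51, 2.92], dendritic-like cells at 1.66 [1.51, 1.82], B cell-like cells at 1.60 [1.41, 1.81] and nonclassical monocyte-like cells at 1.44 [1.28, 1.63]. The intervals of these last 3 clusters overlapped, so their order is not resolved. Classical monocyte-like cells stood at 0.396. Over both microglia-like clusters, 91.7% of cells had a Cx3cr1 molecule, against 29.4% of B cell-like cells, a type that should lack the gene. Of those B cell-like cells 57.1% had shared barcodes.

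In the naive brain Cx3cr1 was high in the sample labelled depleted and low in the sample labelled control. The depleted arm was the one in which Cx3cr1-expressing microglia were targeted. Microglia-like cells had 10.0 CP10k [9.81, 10.3] in 686 cells of the sample labelled depleted, against 1.72 [1.50, 1.96] in 134 cells labelled control. The log2 ratio was 2.48. In the sample labelled depleted 96.8% of these cells had a Cx3cr1 molecule, against 46.3% in the sample labelled control. Both the cell number and the level per cell were thus higher under the depleted label, and the 2 intervals are far apart. The microglia markers themselves summed to 142 CP10k under the depleted label and 130 under the control label. Neutrophil markers, which should be low in microglia, summed to 53.3 and 71.4 CP10k. Both arms carry the Cre allele at Cx3cr1, and the part of that allele, of the labels or of the neutrophil RNA in the difference was not tested.

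The gap widened without shared barcodes. Cx3cr1 then stood at 10.8 CP10k in 490 cells of the sample labelled depleted and 0.615 in 86 cells of the sample labelled control. Of these cells 83.3% held 5 or more Cx3cr1 UMIs in the sample labelled depleted, against 2.33% in the sample labelled control. No Cx3cr1 UMI was seen in 3.27% of the cells labelled depleted and in 65.1% of those labelled control. Without shared barcodes, microglia-like cells under the 2 labels thus lay mostly in different ranges of Cx3cr1 count, with some overlap. From 1 to 4 UMIs were held by 13.5% of these cells labelled depleted and 32.6% of those labelled control. With shared barcodes included, 81.0% of the cells labelled depleted and 13.4% of those labelled control held 5 or more.

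Across the naive brain, 30 pairs of gene and cluster were measured among 48, and 6 of them were more than 2 fold higher and 1 more than 2 fold lower in the sample labelled depleted. Over all measured genes of the same clusters 1.47% were past 2 fold higher and 1.27% past 2 fold lower. Cx3cr1 made up 3 of the 6. Besides microglia, it was higher in monocyte-like cells, at 1.90 CP10k [1.70, 2.12] under the depleted label and 0.873 [0.711, 1.06] under the control label, and in neutrophil-like cells, at 1.43 [1.12, 1.79] and 0.268. Neutrophil-like cells without shared barcodes numbered 18 under each label, too few for the comparison, and had 1.78 and 0.113 CP10k. In the monocyte-like cluster 62.2% of barcodes were shared, and without them Cx3cr1 stood at 1.36 and 1.28 CP10k. Microglia markers summed to 23.7 and 20.1 CP10k in those monocyte-like cells and to 12.1 and 7.46 CP10k in the neutrophil-like cells. In microglia-like cells alone, only 0.284% of measured genes were past 2 fold higher, and Cx3cr1 was among them, while Ccr1, Ccr2, Cxcr2 and Cxcr4 lay within a log2 ratio of 0.34 there.

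The other pairs past 2 fold in the naive brain sat at low levels. Cxcr6 was at 0.586 CP10k under the depleted label and 0.199 under the control label in monocyte-like cells, and at 0.856 and 0.268 in neutrophil-like cells. T cell markers summed to 8.45 and 6.56 CP10k in the monocyte-like cells and to 10.8 and 1.74 CP10k in the neutrophil-like cells, and their part in these values was not tested. Without shared barcodes the Cxcr6 log2 ratio in monocyte-like cells turned to -0.56. Cxcr2 in monocyte-like cells was lower under the depleted label, at 0.279 CP10k against 0.821 under the control label. Neutrophil markers moved with it, at 26.1 CP10k under the depleted label and 71.3 under the control label. Ccr7 in mural-like cells, at 0.676 and 0.212 CP10k, came from few cells: 2 of 479 cells held 50% of its UMIs, and without shared barcodes it stood at 0.0885 and 0.277. That cluster did not carry mural markers alone: its endothelial markers summed to 38.7 CP10k and its mural markers to 40.0, and choroid plexus markers summed to 110 CP10k in it.

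**Figure D2:**
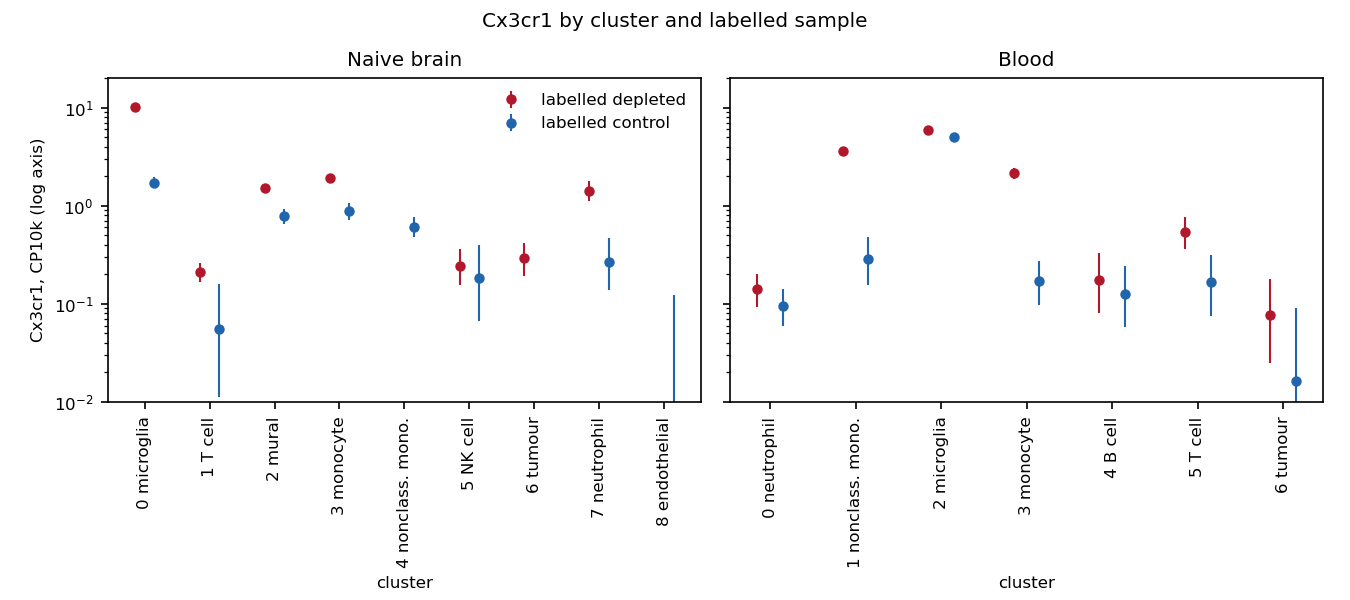
Cx3cr1 level (CP10k, log axis) in each authors' cluster with at least 30 cells of a sample, in the sample labelled depleted (red) and the sample labelled control (blue), for the naive brain and the blood; bars are exact Poisson 95% intervals, which cover counting error only. The red points sit above the blue in naive microglia-like cells, at 10.0 against 1.72, and in both monocyte-like clusters of the blood, at 3.64 against 0.286 and 2.15 against 0.170, while the microglia-like cells of the blood are close, at 5.86 and 5.03.

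Blood monocytes showed the same direction. Nonclassical monocyte-like cells had 3.64 CP10k of Cx3cr1 [3.38, 3.92] in 386 cells labelled depleted, against 0.286 [0.157, 0.480] in 95 cells labelled control. Classical monocyte-like cells had 2.15 [1.89, 2.43] in 195 cells labelled depleted, against 0.170 [0.0969, 0.275] in 160 cells labelled control. The log2 ratios were 3.28 and 3.06, and the UMI ratios had counting intervals from 7.53 to 23.4 and from 7.64 to 22.5. The share of cells with a Cx3cr1 molecule was 69.7% under the depleted label and 12.6% under the control label in the nonclassical cluster, and 65.6% and 9.38% in the classical cluster. These clusters had few shared barcodes (12.1% and 7.9%), and without them the levels were 3.83 and 0.333 CP10k in nonclassical cells and 2.18 and 0.143 in classical cells. Monocyte markers summed to 132 CP10k under the depleted label and 151 under the control label in the nonclassical cluster and to 409 and 383 in the classical one. In the nonclassical cluster neutrophil markers summed to 37.2 and 109 CP10k.

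By the authors' surface gates, Cx3cr1 in blood cells gated Ly6C high was 2.46 CP10k under the depleted label and 0.136 under the control label, and in cells gated Ly6C low it was 3.23 and 0.890. In the naive brain the gate of CNS-native myeloid cells held 956 cells at 8.14 CP10k under the depleted label and 300 cells at 1.73 under the control label. The antibody gates thus gave the same direction as the RNA clusters in both tissues. Over the blood, 27 of 56 pairs were measured, 4 more than 2 fold higher and 1 more than 2 fold lower under the depleted label, beside 0.637% and 0.693% of all measured genes. Besides the 2 monocyte clusters, Cx3cr1 was at 0.539 and 0.166 CP10k in T cell-like cells. Of these 49.0% had shared barcodes, and without them the levels were 0.361 and 0.227, below 2 fold. The microglia-like cells of the blood, 234 under each label, had 5.86 CP10k [5.47, 6.27] under the depleted label and 5.03 [4.66, 5.41] under the control label, and 81 of them without a shared barcode had 3.91.

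**Figure D3:**
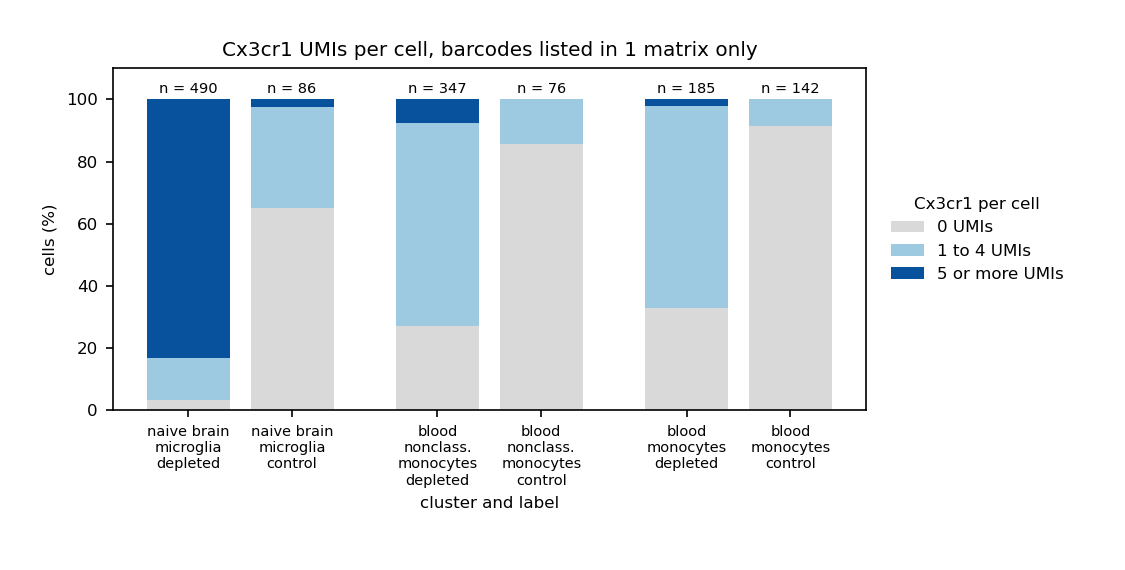
Share of cells (%) with 0, 1 to 4 or 5 and more Cx3cr1 UMIs in naive microglia-like cells and in both monocyte-like clusters of the blood, in the sample labelled depleted and, to its right, the sample labelled control, with barcodes listed in more than 1 matrix left out. In each pair the bar with the larger share at 0 UMIs is the one labelled control, 65.1% against 3.27% in naive microglia-like cells.

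Ccr2 was the leading receptor gene of classical monocytes and differed far more between tissues than between labels. In blood monocyte-like cells it stood at 17.1 CP10k [16.4, 17.9] in the sample labelled depleted and 18.3 [17.5, 19.2] in the sample labelled control, and 99.2% of all blood monocyte-like cells had a molecule, against 5.22% of blood B cell-like cells. In naive brain monocyte-like cells it stood at 5.96 [5.60, 6.33] and 5.35 [4.94, 5.79]. The UMI ratio of the labels was 1.11 [1.01, 1.23] in the naive brain and 0.935 [0.876, 0.999] for blood. Of the monocyte-like clusters of the brain with metastases the smaller had 8.29 [7.92, 8.67] and the larger 4.23 [4.08, 4.39], and these intervals are apart. Ccr2 then followed in an unnamed cluster at 3.39, dendritic-like cells at 3.25, NK cell-like cells at 2.61, macrophage-like cells at 2.55 and 3 T cell-like clusters at 1.04 to 2.08, so it was not limited to monocytes. Naive NK cell-like cells had 3.39 and 4.39 under the depleted and the control label.

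Between tissues, monocyte-like cells had 5.21 CP10k of Ccr2 in the brain with metastases, 5.72 in the naive brain and 17.7 in blood. The log2 ratio of the brain with metastases was -1.74 over the blood and -0.13 over the naive brain. The matrices had been normalized separately, and monocyte markers as a whole summed to 225 CP10k in the brain with metastases, against 397 in the blood. The 2 comparisons share the cells of the brain with metastases. Ccr1 ran the other way, at 2.58 CP10k in the brain with metastases, 1.83 in the naive brain and 0.878 in blood, with a log2 ratio of 1.45 over the blood. Cxcr4 did so as well, at 1.27 CP10k in the brain with metastases, 1.22 in the naive brain and 0.369 in blood, with a log2 ratio of 1.55 over the blood. Monocyte-like cells of the brain with metastases thus had less Ccr2 and more Ccr1 and Cxcr4 than those of the blood. These 3 differences stayed past 2 fold under all alternatives run. At Leiden resolution 0.5 no cluster was named monocyte, so that alternative could not be run. The larger monocyte-like cluster of that brain, of 509 cells, also carried 6 of 8 macrophage markers, against 0 of 8 in the blood cluster. The part of macrophage-like cells in these differences was not tested.

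In blood nonclassical monocyte-like cells Ccr2 was lower in the sample labelled depleted, at 2.09 CP10k [1.89, 2.31], against 5.21 [4.59, 5.90] in cells labelled control, and the log2 ratio was -1.28. In the brain with metastases nonclassical monocyte-like cells had 1.28 CP10k, against 2.72 in all those of the blood. Without shared barcodes the values of the 2 labels in the blood were 2.08 and 6.40. Ccr2 in blood B cell-like cells was 0.623 under the depleted label and 0.141 under the control label, from 32 and 10 UMIs, and without shared barcodes it was 0.287 and 0.119, below the level counted as measured. Cx3cr1 in monocyte-like cells was 0.396 CP10k in the brain with metastases, 1.49 in the naive brain and 1.25 in blood. The difference from blood depended on the label of the blood cells, since against the blood labelled control alone the log2 ratio was 0.88. Microglia markers in the monocyte-like cells summed to 8.34 CP10k in the brain with metastases, against 22.3 in the naive brain. Among monocyte-like cells with a Ccr2 molecule, 20.2% in the brain with metastases, 40.6% in the naive brain and 40.6% in blood also had one of Cx3cr1, and in both brain tissues the interval of the share overlapped that of cells without Ccr2. In the blood only 3 such cells lacked Ccr2, too few to compare.

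Neutrophil-like cells carried Cxcr2, Ccr1 and Cxcr4 together. In the blood Cxcr2 was level between the labels, at 18.7 CP10k [18.1, 19.3] in 429 cells labelled depleted and 18.6 [18.1, 19.2] in 537 cells labelled control, with a UMI ratio between 0.961 and 1.05. A Cxcr2 molecule was found in 98.1% of the cells labelled depleted and 99.6% of those labelled control, against 6.02% of blood B cell-like cells. Ccr1 was also level, at 8.27 [7.87, 8.68] and 8.33 [7.97, 8.70]. Cxcr4 was somewhat higher under the depleted label, at 2.99 [2.75, 3.24] against 2.18 [1.99, 2.37] under the control label, with intervals apart and a log2 ratio of 0.44. In the naive brain the 56 and 49 neutrophil-like cells had 6.16 and 7.55 CP10k of Cxcr2, 3.71 and 4.31 of Ccr1 and 2.11 and 1.16 of Cxcr4, depleted label before control label. The Cxcr4 gap was in the same direction as in the blood, while the intervals of Cxcr2 and of Ccr1 overlapped.

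Across tissues, Cxcr2 in neutrophil-like cells was 4.75 CP10k in the brain with metastases, 6.80 in the naive brain and 18.7 in blood. The log2 ratio of the brain with metastases over the blood was -1.95. Ccr1 ran 4.32, 3.99 and 8.30 in the same order of tissues, and Cxcr4 1.32, 1.67 and 2.53, both lower in the brain with metastases than in the blood by less than 2 fold, although without shared barcodes the log2 ratio of Ccr1 was -1.01. The brain with metastases held 2 neutrophil-like clusters that differed. One, of 137 cells, had 7.58 CP10k of Cxcr2 [7.15, 8.02] and 6.34 of Ccr1 [5.95, 6.75]. The other, of 103 cells and led by the granule genes Camp, Ngp, Elane and Mpo of immature neutrophils, had 1.68 [1.47, 1.90] and 2.12 [1.89, 2.38]. Its Ccr2 was 1.34 CP10k, found in 23.3% of cells, and 7 cells held 50% of its Ccr2 UMIs. This cluster also carried 3 of 5 basophil and 3 of 8 monocyte markers. The neutrophil-like cells as a whole had 0.723 CP10k of Ccr2, against 0.135 in blood. Without the cluster of 103 cells the log2 ratio of Ccr2 over the blood was 0.11. Of the larger cluster 43.1% of barcodes were shared, and of the naive neutrophil-like cells 65.7%. Without shared barcodes Cxcr2 stood at 3.54 CP10k in the brain with metastases, 4.10 in 36 cells of the naive brain and 19.1 in the blood.

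Over both neutrophil-like clusters of the brain with metastases together, Ccr1 was found in 92.6% of cells with Cxcr2 and in 69.2% of those without. These clusters differed in the levels of both genes, and shares within each cluster were not computed. After all cells were thinned to 2000 corrected UMIs, which no cell fell short of, the shares over both clusters were 58.9% and 37.1%, still with intervals apart. Thinning of corrected UMIs does not equalize the captured molecules. The intervals overlapped in the naive brain and the blood, where only 10 cells each lacked Cxcr2. The second microglia-like cluster of the brain with metastases also had Cxcr2, at 2.78 CP10k in 73.0% of its cells, and Ccr1, at 2.72. It was the one with neutrophil markers, and the main microglia-like cluster had Ccr1 at 0.863 and no measured Cxcr2.

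Cxcr3 and Cxcr6 were highest in T cell-like and NK cell-like cells. Dendritic-like cells of the brain with metastases also had a Cxcr3 molecule above background, in 19.5% of cells and in 13.2% without shared barcodes. In naive brain T cell-like cells Cxcr3 was 2.75 CP10k [2.59, 2.92] in 440 cells labelled depleted and 2.00 [1.64, 2.41] in 59 cells labelled control. Cxcr6 was 4.68 [4.47, 4.90] and 4.80 [4.24, 5.42]. The Cxcr6 intervals overlapped, and those of Cxcr3 were apart with a log2 ratio of 0.44. Naive NK cell-like cells had 1.34 and 1.13 CP10k of Cxcr3 and 3.67 and 4.03 of Cxcr6, depleted label before control label, with overlapping intervals. A Cxcr6 molecule was present in 55.6% of T cell-like cells in the brain with metastases, 79.2% in the naive brain and 40.3% in blood, against 4.17%, 16.2% and 0.725% of neutrophil-like cells. For Cxcr3 these shares were 51.5%, 76.0% and 35.9%, against 3.75%, 11.4% and 1.14%. The blood shares without shared barcodes were 13.3% for Cxcr6 and 19.0% for Cxcr3. By the authors' surface gates the naive CD8+ T cells (154 cells) had 2.98 CP10k of Cxcr3 and 4.65 of Cxcr6, the CD4+ T cells (39 cells) 2.62 and 4.15, and NK1.1+ cells (155 cells) 1.44 and 3.62.

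The promoters of these 2 genes are shown because they are the members whose levels ran most closely together over the 44 clusters of at least 30 cells. Each is the window of 250 bases before the start, from RefSeq (GRCm38.p6), written 5′ to 3′ on the strand of the gene. Capitals mark the hexamer that reads TGTGGT on the other strand, the core bound by RUNX factors, which are known for their role in T cell development.
Cxcr3, chrX:101734148-101734397, minus strand: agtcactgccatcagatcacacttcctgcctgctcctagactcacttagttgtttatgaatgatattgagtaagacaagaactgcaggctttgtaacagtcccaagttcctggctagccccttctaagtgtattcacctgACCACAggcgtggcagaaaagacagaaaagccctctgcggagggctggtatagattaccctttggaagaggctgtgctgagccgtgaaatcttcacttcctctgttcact
Cxcr6, chr9:123806227-123806476, plus strand: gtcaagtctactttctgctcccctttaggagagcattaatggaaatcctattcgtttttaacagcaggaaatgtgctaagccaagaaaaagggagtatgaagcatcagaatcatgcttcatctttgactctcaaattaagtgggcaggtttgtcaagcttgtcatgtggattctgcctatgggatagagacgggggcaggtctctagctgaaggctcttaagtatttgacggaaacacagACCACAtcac

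RefSeq windows matched 7 of the 8 genes, Ccr7 being the exception. TGTGGT lay in 4 of the 7 (Cx3cr1, Ccr1, Cxcr3 and Cxcr6) and in 14.0% of 32851 mouse windows of the same length. It began 110 bases before the start in Cxcr3 and 10 bases before it in Cxcr6. GAGGAA, a core bound by the myeloid factor PU.1, lay in Ccr1, Cxcr2 and Cxcr3, against 23.3% of all windows, and the one in Cxcr3 also matched its longer forms GAGGAAGT and AGAGGAAGT, with which it overlaps. TTTCCA lay in Ccr1, Ccr2 and Cxcr6, against 18.6% of all windows, TATAAA in Cxcr4, against 12.4%, and CAGCTG in Cx3cr1, against 13%. No window of the 7 held GGTGTG or, overlapping with it, its longer form GGTGTGA. The same was true of TTGCNNAA, bound by C/EBP factors, of TGACTCA, bound by the AP-1 complex, of GATAAG, bound by factors of the erythroid and lymphoid lines, and of both ETS forms searched, ACAGGAAG and CCGGAAGT. All 14 motifs were searched on both strands, and a match describes letters, not binding.

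Both genes were lower in the T cell-like cells of the brain with metastases than in those of the naive brain, by less than 2 fold. Cxcr3 was 1.36 CP10k in the brain with metastases, against 2.66 in the naive brain, a log2 ratio of -0.92, and Cxcr6 was 2.73 and 4.70, a log2 ratio of -0.76. T cell markers summed to 48.8 CP10k in the brain with metastases, against 60.2 in the naive brain. Without shared barcodes the levels were 1.36 and 2.73 for Cxcr3 and 2.72 and 4.84 for Cxcr6. The 3 T cell-like clusters of the brain with metastases differed: clusters of 323 and 245 cells had 1.68 and 1.58 CP10k of Cxcr3 and 2.57 and 2.66 of Cxcr6, whereas a cluster of 185 cells led by Il17a and Tcrg-C1, genes of gamma delta and interleukin-17-making T cells, had 0.43 of Cxcr3 beside 3.12 of Cxcr6. That cluster was thus low in Cxcr3 and had the highest Cxcr6 of the 3. The naive T cell-like cells were a single cluster led by Cd8b1. In the brain with metastases, unnamed clusters of 181 and 124 cells also carried 8 of 8 T cell markers and were not counted as T cell-like. The part of this unlike make-up in the differences between the brain tissues was not tested.

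NK cell-like cells differed between the brain tissues in Cxcr6 and Cxcr4, in opposite directions. Cxcr6 was 1.27 CP10k [1.14, 1.41] in the brain with metastases, against 3.76 [3.44, 4.11] in the naive brain, a log2 ratio of -1.49. Cxcr4 ran the other way, at 1.85 [1.69, 2.02] and 0.590 [0.467, 0.737], a log2 ratio of 1.50. A Cxcr6 molecule was found in 33.5% of NK cell-like cells in the brain with metastases, against 67.8% in the naive brain, and a Cxcr4 molecule in 54.5% and 24.0%. Without shared barcodes Cxcr6 was 1.20 and 3.81 CP10k and Cxcr4 1.90 and 0.525. Both stayed past 2 fold under all alternatives run. NK markers summed to 64.8 CP10k in the brain with metastases, against 44.9 in the naive brain. In that comparison 28 of 48 pairs were measured, 2 more than 2 fold higher and 5 more than 2 fold lower in the brain with metastases, beside 1.29% and 1.43% of all measured genes. The neutrophil-like cells held 2 of the 7: Cxcr6 was 0.0535 CP10k in the brain with metastases, against 0.585 in the naive brain, and Cx3cr1 was 0.171 and 0.894. Without shared barcodes that Cxcr6 difference was no longer past 2 fold, at 0.0500 and 0.142 CP10k. T cell markers in those cells summed to 0.98 and 6.62 CP10k and microglia markers to 4.16 and 9.96, and their part was not tested. Cx3cr1 in microglia-like cells was not among the 7, at 8.13 CP10k in the brain with metastases and 8.69 in all cells of the naive brain, but against the naive cells labelled control alone its log2 ratio was 2.18.

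In blood T cell-like cells, which also carried NK markers, Cxcr6 was 2.40 CP10k under the depleted label and 1.97 under the control label, and Cxcr3 was 1.04 and 0.903. Over the 105 cells without a shared barcode Cxcr6 was 0.942 and Cxcr3 0.535, while Ccr7 was 2.12, so the cells with shared barcodes had the higher levels of Cxcr6 and Cxcr3 there. Without shared barcodes both genes were more than 2 fold higher in the brain with metastases than in the blood, with log2 ratios of 1.20 for Cxcr3 and 1.44 for Cxcr6, against 0.44 and 0.30 in all cells. Cxcr6 was found more often in T cell-like cells with Cxcr3 than in those without: 65.7% against 44.9% in the brain with metastases, 82.3% against 69.2% in the naive brain, and 60.8% against 28.8% in the blood. After thinning to 2000 UMIs the intervals overlapped in all 3 matrices, so the link was not detectable at equal numbers of corrected UMIs. Cxcr6 was found less often with Ccr7 than without it, at 36.4% against 59.3% in the brain with metastases, 60.0% against 80.6% in the naive brain and 18.6% against 49.0% in the blood, and the intervals stayed apart after thinning in the brain with metastases and the blood. Shares of the brain with metastases pool T cell-like clusters that differed in Cxcr3 and Ccr7, and shares within each cluster were not computed. The blood intervals overlapped for both pairs without shared barcodes, at 20% against 11.8% with and without Cxcr3 and 8.51% against 17.2% with and without Ccr7.

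In the brain with metastases Ccr7 was highest in 1 cluster, where a few cells held much of it. The dendritic-like cells of the brain with metastases, 195 cells that carried 6 of 6 migratory and 6 of 8 conventional dendritic markers, reached 4.47 CP10k [4.22, 4.73]. Only 24.6% of these cells had a molecule, 1 cell had 92 UMIs, and 11 cells held 50% of all Ccr7 UMIs. Detection of Ccr7 went with that of migratory genes. Ccr7 was found in 88.9% of the cells with Cacnb3 and 10.1% of those without, in 67.3% and 10.3% for Socs2, in 65.1% and 13.2% for Ccl22, in 60.9% and 6.87% for Il4i1, and in 59.6% and 11.9% for Fscn1, an actin-bundling protein of mature dendritic cells. For Ccl17 the shares were 26.9% and 24.3%, with overlapping intervals. Of the 8 conventional genes, Cd209a (11.2% and 35.8%) and Naaa (14.6% and 41.7%) went the other way with intervals apart. The intervals overlapped for the other 6, of which Flt3 stood at 27.2% and 21.0%.

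**Figure D4:**
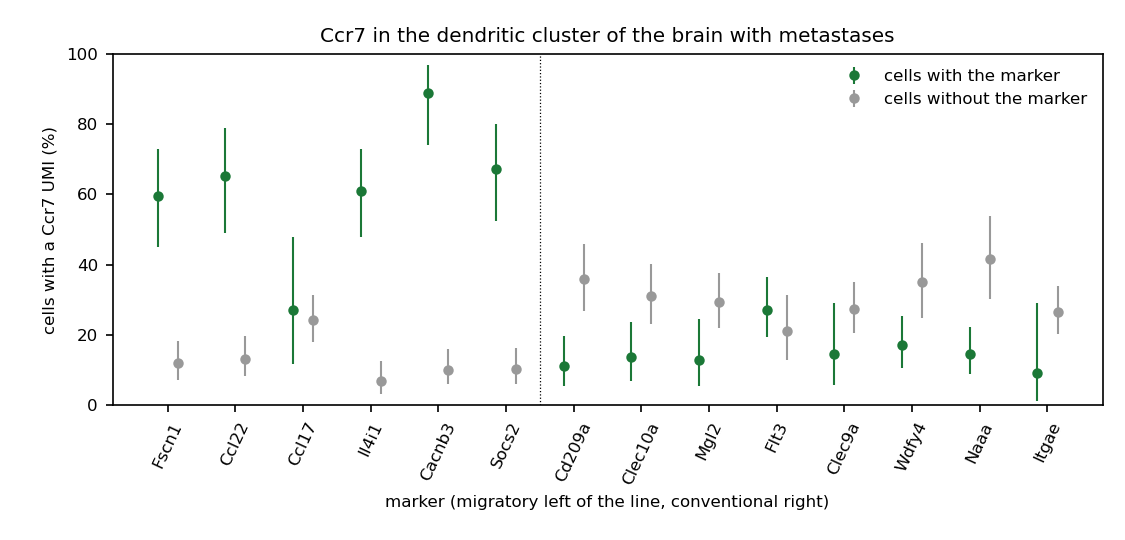
Share of dendritic-like cells of the brain with metastases (%) with a Ccr7 UMI, among cells with (green) and without (grey) a UMI of each marker gene, with exact Clopper-Pearson 95% intervals; migratory markers stand left of the dotted line and conventional markers right of it. The green points are above the grey, with intervals apart, for all migratory markers but Ccl17, and below them, with intervals apart, for Cd209a and Naaa.

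Ccr7 also reached the measured level in B cell-like and T cell-like cells of the brain with metastases and of the blood. In the brain with metastases B cell-like cells had 2.31 CP10k in 65.5% of cells, and T cell-like clusters had 0.855 and 0.658, with the Il17a-led cluster below the measured level. Blood B cell-like cells had 1.36 [1.06, 1.72] in the sample labelled depleted and 1.40 [1.14, 1.70] in the sample labelled control, and blood T cell-like cells 1.29 and 1.22. Naive brain T cell-like cells had 0.145, below the 0.286 of microglia-like and the 0.666 of monocyte-like cells there. T cell-like cells therefore stood at 0.604 CP10k in the brain with metastases, against 0.145 in the naive brain, a log2 ratio of 1.52, and at 1.25 in the blood (2.12 without shared barcodes). Against the naive cells labelled control alone, which had 0.366 CP10k, the difference between the brain tissues fell to a log2 ratio of 0.59. That difference was also no longer counted as past 2 fold when the T cell-like cluster of 323 cells was left out. In naive monocyte-like cells Ccr7 was 0.592 and 0.778 CP10k under the depleted and the control label, and 4 cells held 50% of its UMIs. The brain with metastases had 0.165 in such cells, against 0.666 in the naive brain.

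Cxcr4 was spread over several cell types. In nonclassical monocyte-like cells it was 3.23 CP10k [2.98, 3.50] in the brain with metastases, 2.31 [2.07, 2.57] in the naive brain and 1.20 [1.07, 1.35] in blood, with a log2 ratio of 1.35 for the brain with metastases over the blood that stayed past 2 fold under all alternatives run. The naive cells of that cluster were nearly all from the sample labelled control, 148 of 166. In the blood the 2 labels had 1.24 and 1.08 CP10k. B cell-like cells had 2.26 in the brain with metastases, against 1.31 in the blood, and without shared barcodes 3.28 against 1.103. T cell-like cells had 1.49 in the brain with metastases, 1.64 in the naive brain and 1.24 in blood, so no 2 tissues differed by 2 fold there, but without shared barcodes the blood level was 0.572, beside 1.48 and 1.56 in the brain tissues. Monocyte-like cells of the naive brain had 0.927 [0.790, 1.08] under the depleted label and 1.67 [1.44, 1.92] under the control label, a log2 ratio of -0.78.

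**Figure D5:**
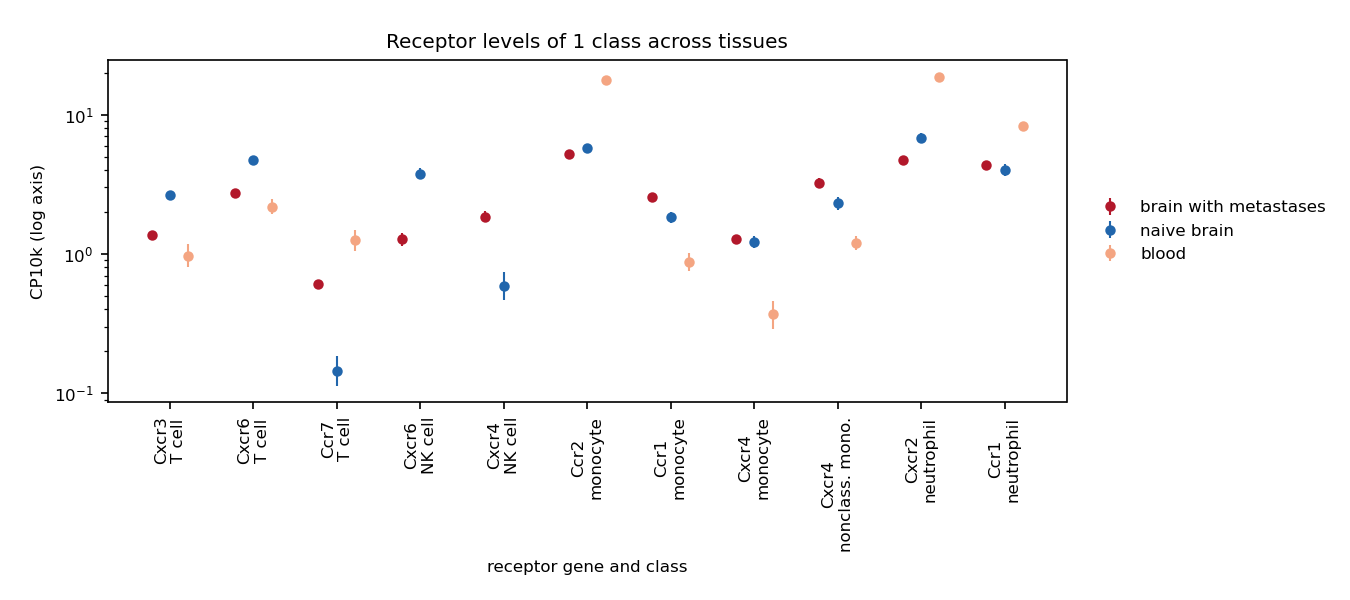
Level (CP10k, log axis) of selected receptor genes in cells of 1 class in the brain with metastases (red), the naive brain (blue) and the blood (orange), with exact Poisson 95% intervals, which cover counting error only; no NK cell-like class was compared in the blood. Ccr2 in monocyte-like cells and Cxcr2 in neutrophil-like cells are highest in the blood, at 17.7 and 18.7, Ccr1 and Cxcr4 in monocyte-like cells are lowest there, and Cxcr6 and Cxcr4 in NK cell-like cells cross between the brain tissues.

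Against the blood, 29 of 48 pairs were measured in the brain with metastases, 7 more than 2 fold higher and 9 more than 2 fold lower, beside 7.72% and 6.64% of all measured genes. Several of the 16 lay in clusters rich in shared barcodes. B cell-like cells had 1.60 CP10k of Cx3cr1 in the brain with metastases, against 0.147 in the blood, and Ccr1 (0.788 and 0.188) and Ccr2 (1.38 and 0.344) ran the same way. Without shared barcodes 51 B cell-like cells of the brain with metastases were left, and Cx3cr1 (0.497 and 0.0959) and Ccr2 (0.497 and 0.192) were below the level counted as measured, while Ccr1 was 0.653 and 0.173. Microglia markers summed to 28.4 CP10k in those cells of the brain with metastases and 2.95 in those of the blood, monocyte markers to 44.9 and 16.7, and B cell markers to 44.3 and 105, and their part in the 3 values was not tested. Cxcr2 in T cell-like cells was 0.0563 in the brain with metastases, against 1.33 in the blood, where it dropped to 0.443 without shared barcodes. The microglia-like cells were lower in the brain with metastases for Ccr2 (0.352 and 2.27 CP10k), Cxcr2 (0.721 and 2.01) and Cxcr4 (0.245 and 1.04). In the blood, neutrophil markers summed to 117 CP10k in the T cell-like cells and to 177 in the microglia-like cells. Monocyte markers summed to 77.1 CP10k in those microglia-like cells, beside 90.3 for microglia markers. The part of this RNA in the T cell-like and microglia-like differences was not tested.

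Over the 44 clusters, the log2 levels of Cxcr3 and Cxcr6 had a Pearson correlation of 0.96, those of Ccr1 and Cxcr2 of 0.79 and those of Ccr2 and Cxcr4 of 0.65. These are descriptions, since all clusters come from 1 pool of samples and those of 1 matrix share a normalization. Of 5092 genes measured in every matrix, those most like Cx3cr1 were P2ry6 (0.93), Daglb, Ppfia4, Hpgd and Gpr84. The most like Ccr1 were Cd300lf (0.95), Clec5a, Hk3, Wfdc17 and Bst1, and the most like Cxcr2 were Stfa2l1 (0.99), Asprv1, Il1f9, Retnlg and Trim30b. Ccr2 came closest to H2afy (0.88), Casp1, Ms4a6b, Cd48 and Ifi209. Cxcr3 came closest to Lck (0.98), Thy1, Skap1, Cd28 and Fasl, and Cxcr6 to Skap1 (0.98), Tox, Cd226, Thy1 and Lck, so 3 genes were on both lists. Cxcr4 came closest to Stk17b (0.92), Cytip, Rac2, Fam107b and Pik3cd. Ccr7 had the weakest likeness of the 8, with Gpr171 at 0.73, before H2-Oa, Cnp, P2ry10 and H2-DMb2.

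Of 22 ligand genes of these receptors, 17 were measured in the brain with metastases, 16 in the naive brain and 16 in blood. The Cxcr3 ligands Cxcl9 and Cxcl10 were highest in monocyte-like cells of both brain tissues, at up to 24.0 and 38.2 CP10k in the brain with metastases and 7.42 and 13.8 in the naive brain, and so was the Cxcr6 ligand Cxcl16, at 7.70 and 3.76. Ccl2, a ligand of Ccr2, was also highest in monocyte-like cells, at 16.4 and 9.65. Ccl3 and Ccl4, of which Ccl3 binds Ccr1, were highest in microglia-like cells, at 30.1 and 64.4 CP10k in the brain with metastases and 16.5 and 36.6 in the naive brain. Ccl5 was highest in NK cell-like cells, at 70.0 and 70.2. Cx3cl1 was highest in endothelial-like cells, at 1.02 and 2.06, and Cxcl12 reached 12.1 in endothelial-like cells of the brain with metastases, where an unnamed cluster had 18.8, and 8.88 in those of the naive brain.

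In monocyte-like cells 14 ligands were measured between the brain tissues, and 2 of them, Cxcl9 and Cxcl10, were more than 2 fold higher in the brain with metastases and 0 more than 2 fold lower, with a median log2 ratio of 0.60 beside 0.08 over all genes measured there, of which 0.635% were past 2 fold higher. Against the blood 12 of 14 were more than 2 fold higher, beside 13.6% of all genes measured there, with a median log2 ratio of 4.78 beside -0.12. In neutrophil-like cells 8 of 9 were more than 2 fold higher, beside 18.5% of all genes measured there, and 1, Ccl6, lower, beside 9.38%. In microglia-like cells, of which 82.7% in the blood had shared barcodes, 0 of 16 ligands were more than 2 fold higher and 9 more than 2 fold lower, beside 0.188% and 10.8% of all genes measured there. Among 15 other chemokine receptor genes 4 were measured in the brain with metastases, 4 in the naive brain and 5 in blood. Ccrl2, an atypical receptor, reached 16 CP10k in neutrophil-like cells of the brain with metastases, and Ackr1, a chemokine-binding receptor of venules, 15.4 in 1 endothelial-like cluster there. In the blood Cxcr5 (1.13) and Ccr6 (0.589) led in B cell-like cells. Of 18 genes of receptor signalling 15, 14 and 16 were measured in the brain with metastases, the naive brain and the blood, and between the brain tissues only Rgs10 in NK cell-like and Rgs1 in neutrophil-like cells were past 2 fold, both lower in the brain with metastases.

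In all, 141 pairs of gene and cluster had a cell type in the same matrix that should lack the gene, and in 55 of them the share of cells with a molecule lay above that background with intervals apart. After thinning to 2000 UMIs the number was 50, and without shared barcodes 58. Apart from types set beside themselves, the other pairs are read as not distinguishable from free RNA at this depth.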

How the data were processed

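Per the labels' protocols, RNA of 1 pool of 8 hashed samples was measured with 10x 3' v3 chemistry, and reads were processed with Cell Ranger 3.1 on mm10 and with Seurat 3.1.1, per the submitters' processing notes. Values of the 3 deposited matrices are on a natural log scale, ln(1 + UMI count), after the authors' correction of the counts for depth within each matrix. Undoing the log gave whole numbers (largest gap 5.46e-11), and per-cell totals equalled the annotated ones in 2653 of 2653 naive brain cells and 2924 of 2924 blood cells. The design had assumed raw counts, and these corrected counts took their place. Arms, hashtag counts, raw totals, clusters and surface gates came from the deposited annotation, of which 64 columns were not used.

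All cells were kept and no doublet caller was run. The brain with metastases was clustered with scanpy 1.11.5 (2000 variable genes, 30 principal components, 20 neighbours, Leiden resolution 1.0, alternatives 0.5 and 2.0). A name required 3 or more markers that reached 0.5 CP10k and 2 fold over the rest, unless the 10 leading genes held more markers of another type. After the data were seen, erythroid and cycling genes were kept from naming clusters, T cells replaced the missing B cells as background in the naive brain (for Ccr2 none), and alternatives that leave out single clusters of the brain with metastases were added. UMIs were summed per class, of at least 30 cells a side, with a pseudocount of 0.1 CP10k. The procedure was tested on simulated data. Levels set across matrices compare values that were normalized separately. Genes named are the 8 members, genes of 3 lists (other receptors, ligands, receptor signalling), markers, and for each member the 5 genes of highest correlation over clusters. The members and lists were chosen with earlier results of these data known.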

Additional observations from a re-analysis of the deposited data

Results flagged for a closer look

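Ccr2 in classical monocyte-like cells ran in opposite directions between the labels in the 2 tissues. Its log2 ratio of the sample labelled depleted over the sample labelled control was 0.15 in the naive brain, at 5.96 and 5.35 CP10k, and -0.10 in the blood, at 17.1 and 18.3 CP10k. Each label had 1 sample per tissue, and the difference between the tissues was not tested.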

How the results depend on the processing

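Counts of pairs past 2 fold moved with the handling of low levels, shared barcodes and gates. Between the labels in the naive brain the count was 7, and 4 without shared barcodes, 2 with a pseudocount of 0.5 CP10k, 12 with no filter on the level and 3 with a filter of 1 CP10k. In the blood it was 5, and 3 with that pseudocount, 3 with that filter and 8 with the surface gates of the earlier annotation. Between the brain with metastases and the naive brain it was 7, and 4, 15 and 3 with the pseudocount of 0.5, no filter and the filter of 1. Against the blood it was 16 and ran from 11 to 22. Pairs of receptors with shares apart numbered 7, and 3 after thinning to 2000 UMIs.

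Of 35 pairs past 2 fold, 15 stayed past it under all alternatives run and 31 kept their sign. The log2 ratio of Ccr7 in naive mural-like cells turned to -0.999 without shared barcodes and to -0.56 without cells far from the median depth, and that of Cxcr6 in naive monocyte-like cells to -0.56 without shared barcodes. That of Cx3cr1 in neutrophil-like cells of the brain with metastases over the naive brain turned to 1.25 at Leiden resolution 2.0, and that of Cx3cr1 in monocyte-like cells over the blood to 0.88 against blood labelled control. The cause was not tested. No paired analysis was possible because each label of the naive brain and the blood had 1 sample and cells of the brain with metastases were not assigned to samples.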
